A study of Homo sapiens with 9 samples.

Results

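The 44 genes described here encode the enzymes of glycolysis, the glucose and lactate transporters and regulators that feed them, the 2 oxygen-regulated subunits of the hypoxia-inducible factors (HIF), and genes known as HIF targets. They were matched by gene symbol among the 58219 genes quantified in each library, and all 44 were found; 16 are glycolytic enzymes and 28 are other members. After the filter on low counts 15233 genes were tested, 43 of them members. The genes were measured by RNA-seq in MDA-MB-231, an established human line from a breast carcinoma without hormone receptors, grown in medium with 10% serum and, as far as the labels say, without a low-oxygen treatment. Control cells carried a scrambled shRNA by lentivirus. shAPT1 cells carried a lentiviral short hairpin against APT1, an enzyme made from the LYPLA1 gene that strips palmitate from proteins, and were selected with puromycin. APT1wt cells carried a lentivirus expressing wild-type APT1. Each group had 3 libraries. APT1wt was compared with the scrambled-shRNA cells, so its expression vector and the added APT1 cannot be told apart. Nothing in the labels ties the libraries to separate cultures, so each p-value sets a difference against the spread among these samples alone, and that spread may be technical.

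HIF is a pair of subunits, an oxygen-regulated alpha subunit (HIF1A or EPAS1, also called HIF-2 alpha) and the constant partner ARNT. In oxygen, prolyl hydroxylases of the EGLN family mark the alpha subunit for destruction through VHL; without oxygen it accumulates, binds DNA at a short core motif and raises genes of glycolysis, angiogenesis, collagen modification and mitophagy. This control acts mainly on the protein, which RNA-seq does not measure, and many of the same genes also answer to MYC, growth factors and other inputs. Triple-negative breast cancer lines are known for high glycolytic rates in ample oxygen.

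Depth was 12381931 to 18667383 estimated reads per library. LYPLA1 stood at 80.5 to 92.7 TPM (the share of transcripts in a library, corrected for their length) in control, 30.5 to 38.2 TPM in shAPT1 and 169 to 171 TPM in APT1wt, in the direction of each label. Of the basal and mesenchymal markers, VIM stood at 1801 TPM or more in every library, while the hormone receptor genes ESR1 and PGR did not exceed 0.219 TPM. The 7 basal and mesenchymal markers (VIM, CD44, AXL, SNAI2, ZEB1, KRT18 and KRT8) summed to 3560 to 4270 TPM a library. The 5 luminal genes, ESR1 and PGR with GATA3, FOXA1 and ERBB2, were not all absent. They summed to 35.7 to 46.5 TPM a library, and 2 of them passed the filter on low counts. Library 1 stood apart from the other 2 in every group: the chi-square values per gene between library 1 and the others were 7.90 and 6.66 in control, 11.4 and 16.8 in shAPT1 and 4.94 and 6.07 in APT1wt, against 2.07, 6.86 and 2.42 between the other 2. The counts of members are therefore also given without each library 1. In bulk RNA, fewer cells expressing a gene and less of its RNA per cell cannot be told apart.

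Log2 fold changes are given ± SE and were tested with edgeR over all 15233 genes, with Benjamini-Hochberg adjustment at 0.05. In shAPT1 against control 9 members were higher and 8 lower of the 43 tested, where 24.4% of all tested genes passed, 12.8% upward and 11.6% downward. In APT1wt against control 12 were higher and 3 lower, where 23.4% of all genes passed, 11.8% upward and 11.6% downward. These comparisons share the 3 control libraries. Set directly against APT1wt, shAPT1 had 3 members higher and 13 lower, where 25.1% of all genes passed, 12.7% upward and 12.4% downward. The median log2 fold change of the 43 members was -0.00, 0.12 and -0.08 in these comparisons, beside medians of -0.00, -0.00 and 0.00 over all tested genes.

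The balance of calls moved with the scaling and with other choices, among the members and among all genes. With the settings above, 1951 of all tested genes were higher and 1768 lower in shAPT1. In APT1wt 1796 were higher and 1772 lower, and in shAPT1 against APT1wt 1941 and 1888. With library totals alone 10 members were higher and 5 lower in shAPT1, 9 higher and 5 lower in APT1wt, and 8 higher and 9 lower in shAPT1 against APT1wt, with the median of all genes in the last shifted by 0.06. Over all genes that scaling gave 2225 higher and 1485 lower, 1487 and 2057, and 2628 and 1327, in the same order. With the scaled values the authors deposited, tested by limma on log2(value + 1), 5 members were higher and 8 lower in shAPT1, 8 higher and 3 lower in APT1wt, and 2 higher and 11 lower in shAPT1 against APT1wt. All genes gave 1197 and 1129, 1164 and 1072, and 1154 and 1203. With an offset for transcript length in the edgeR test the member counts were 6 and 8, 8 and 3, and 2 and 11. The counts over all genes were then 1196 and 1111, 1141 and 1089, and 1202 and 1172. Relative to the 50 tested genes on each side of a gene along its chromosome, 9 members were higher and 4 lower, 6 higher and 1 lower, and 3 higher and 14 lower. All genes gave 1655 and 1504, 1238 and 1096, and 1680 and 1655. Without library 1 of shAPT1, 10 members were higher and 5 lower in shAPT1, 14 higher and 5 lower in APT1wt, and 5 higher and 13 lower in shAPT1 against APT1wt. All genes gave 2003 and 1861, 2434 and 2391, and 2057 and 2047, of 15664 tested. The filter, scaling and spread were recomputed without that library, and which of them moved the APT1wt counts was not tested. Without library 1 of control the member counts were 8 and 4, 11 and 2, and 4 and 14. All genes then gave 1555 and 1365, 1352 and 1342, and 1934 and 1877. Without library 1 of APT1wt the member counts were 9 and 8, 13 and 2, and 2 and 14. Over all genes they were 1927 and 1728, 1487 and 1496, and 1600 and 1522. The members as a whole moved in no single direction in shAPT1, and the accounts below follow their roles.

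**Figure D1:**
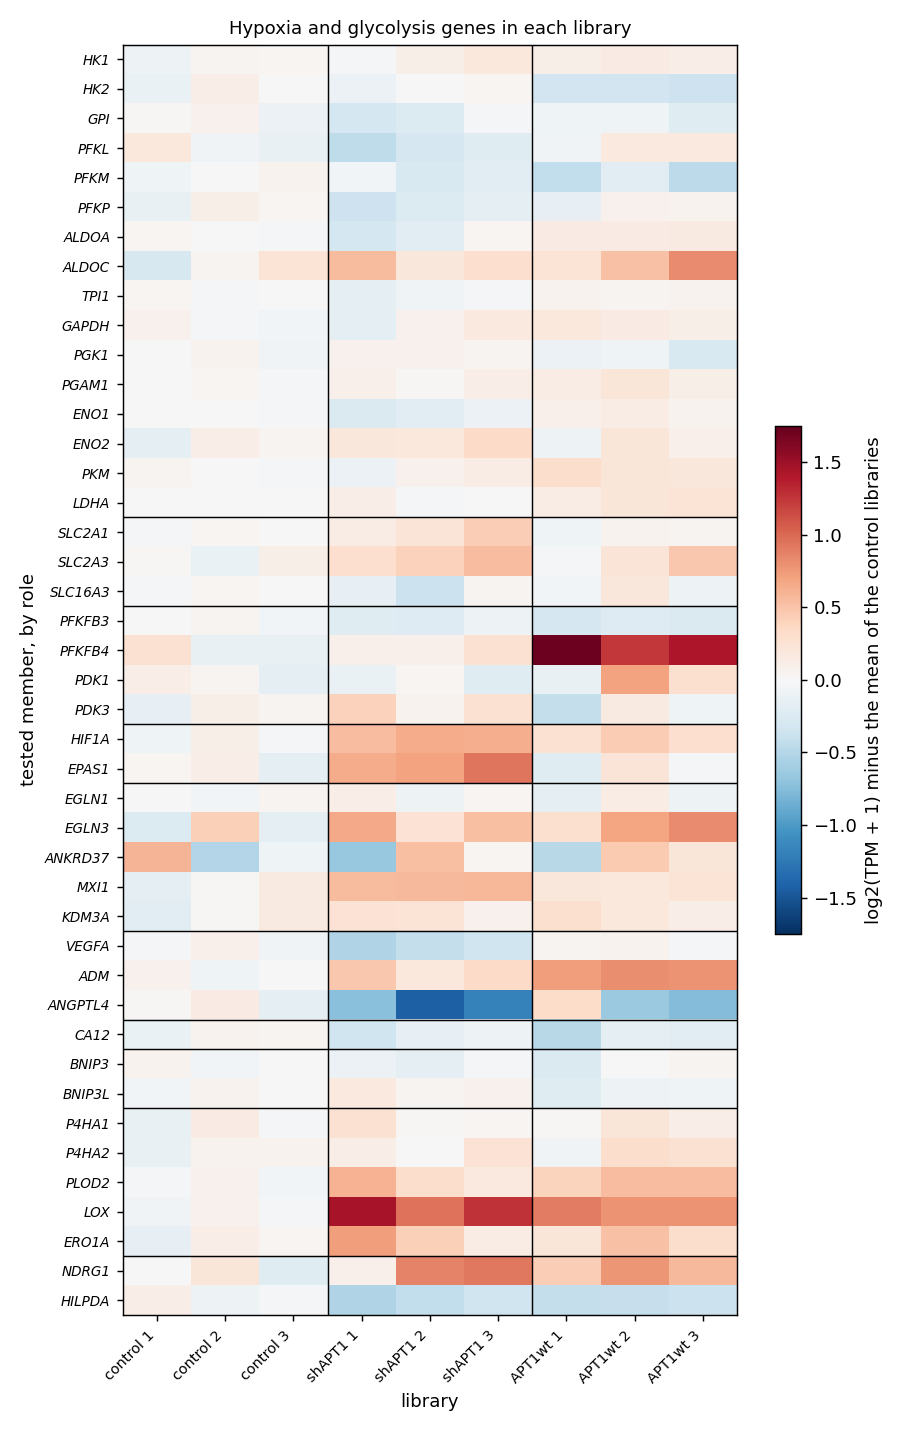
Level of the 43 tested members in each library as log2(TPM + 1) minus the mean of the 3 control libraries (colour, symmetric about 0), with genes in rows by role, libraries in columns, and black lines between roles and groups. PFKFB4 is high in the 3 APT1wt libraries, LOX in all 6 libraries outside control, and ANGPTL4 low in the 3 shAPT1 libraries.

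**Figure D2:**
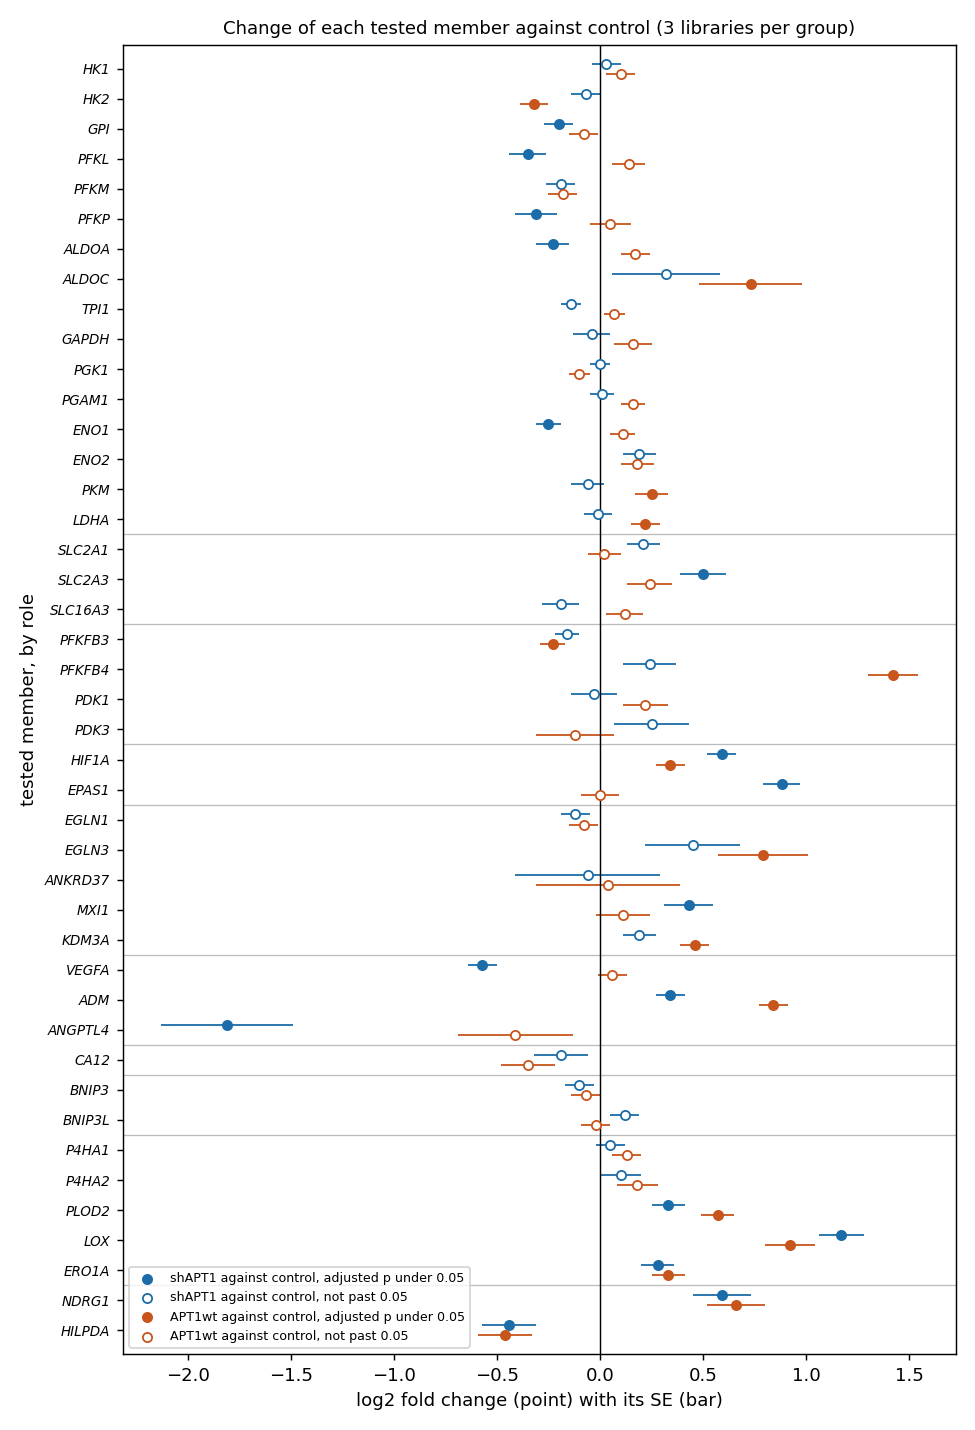
Log2 fold change against control (points) with its SE (bars) for the 43 tested members, shAPT1 in blue and APT1wt in orange, with filled points past an adjusted p of 0.05 and open points not past it. Grey lines separate the roles; the filled points among the 16 enzymes at the top lie within 1 log2 unit of 0, and those of LOX, PFKFB4 and ANGPTL4 lie farthest out.

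Both HIF alpha subunit genes rose in shAPT1. HIF1A (chromosome 14, 61695513 to 61748259, GRCh38) measured 101, 114 and 103 TPM in control, 155, 167 and 166 TPM in shAPT1, and 127, 144 and 130 TPM in APT1wt. The 3 groups did not overlap: shAPT1 was highest and control lowest. HIF1A rose by 0.59 ± 0.07 in shAPT1 (adjusted p = 3.9e-05) and by 0.34 ± 0.07 in APT1wt (adjusted p = 0.0033). Its level was higher in shAPT1 than in APT1wt by 0.25 ± 0.07 (adjusted p = 0.018), a call lost without APT1wt library 1 or shAPT1 library 2 (adjusted p = 0.083 and 0.085). The tested genes around HIF1A on chromosome 14 had a median change of 0.14 in shAPT1 and 0.11 in APT1wt. Relative to those neighbours the change of HIF1A was 0.46 (adjusted p = 6.3e-04) and 0.23 (adjusted p = 0.051). Its main coding transcript, with 64.7% of the gene's TPM, was estimated at 59.6 to 79.2 TPM in control, 103 to 112 TPM in shAPT1 and 70 to 89.4 TPM in APT1wt. The antisense gene HIF1A-AS2, whose transcripts overlap HIF1A, went the other way in shAPT1, by -1.04 ± 0.23 (adjusted p = 0.0051), from 11.7, 15.9 and 15.4 TPM to 6.44, 8.56 and 6.67 TPM. Whether the reads were counted by strand is not given in the sources used here. On the same strand the gene RP11-618G20.1, at 6 to 28.5 TPM a library, overlaps the span of HIF1A by 14122 bases. It changed by 0.11 ± 0.47 in shAPT1 (adjusted p = 0.9), and whether it shares reads with HIF1A was not tested.

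EPAS1 (chromosome 2, 46293667 to 46386703) differed between shAPT1 and both other groups. Its level was 6.72, 7.23 and 5.81 TPM in control, 10.9, 11.3 and 13.4 TPM in shAPT1, and 5.54, 7.87 and 6.43 TPM in APT1wt. All 3 shAPT1 libraries lay above the other 6, and control and APT1wt overlapped. EPAS1 rose by 0.88 ± 0.09 in shAPT1 (adjusted p = 7.1e-06), with a change of 0.00 ± 0.09 in APT1wt (adjusted p = 0.98), and was higher in shAPT1 than in APT1wt by 0.88 ± 0.09 (adjusted p = 7.8e-06). This change passed under all 22 alternatives, the test against a minimum change of 1.5-fold included.

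Among the oxygen sensors and feedback genes, 1 of 5 rose in shAPT1, 2 of 5 rose in APT1wt and none fell, beside 12.8% and 11.8% of all tested genes higher. MXI1, a MYC antagonist induced by HIF, stood at 6.99, 8.12 and 9.06 TPM in control, 12.3, 12.4 and 12.5 TPM in shAPT1 and 9.34, 9.20 and 9.67 TPM in APT1wt. Every shAPT1 library was above every other one, and MXI1 rose by 0.43 ± 0.12 in shAPT1 (adjusted p = 0.022), a call lost without control library 2 or 3 (adjusted p of 0.09 to 0.11). KDM3A, a histone H3 lysine 9 demethylase, rose by 0.46 ± 0.07 in APT1wt on summed reads (adjusted p = 4.8e-04), although its TPM overlapped (16 to 20.7 in control, 20.1 to 22.5 in APT1wt). With an offset for average transcript length its change was 0.21 (adjusted p = 0.19). KDM3A was also lower in shAPT1 than in APT1wt, by -0.28 ± 0.07 (adjusted p = 0.013), and by -0.08 with that offset (adjusted p = 0.64). In shAPT1 against control KDM3A changed by 0.19 ± 0.08 (adjusted p = 0.088), or 0.27 relative to its neighbours, which passed (adjusted p = 0.027). EGLN3, the HIF-induced prolyl hydroxylase, stood at 1.41 to 2.79 TPM in control, from 24 to 43 reads, and at 2.45 to 4.03 TPM in APT1wt, from 56 to 89 reads; it rose by 0.79 ± 0.22 (adjusted p = 0.02), a call lost without APT1wt library 2 or 3 or control library 1 (adjusted p of 0.07 to 0.095), and also relative to its neighbours, whose median was 0.21 (0.58, adjusted p = 0.095). EGLN1, the main oxygen sensor, lay between 35.8 and 43.9 TPM in all 9 libraries with changes of -0.12 ± 0.07 and -0.08 ± 0.07, and ANKRD37, a HIF-induced ankyrin-repeat protein, varied from 1.65 to 5.38 TPM within groups; neither passed in any comparison.

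The glycolytic enzymes shifted by small amounts, with the most calls in the direct comparison of the lines. In shAPT1 5 of 16 fell and none rose, beside 11.6% of all genes lower. In APT1wt 3 of 16 (18.8%) rose and 1 fell, near the 11.8% and 11.6% of all genes, and none of these 4 passed relative to its neighbours. In the direct comparison 7 of 16 were lower in shAPT1 and 1 higher, beside 12.4% of all genes lower and 12.7% higher. Every called change of an enzyme was within 0.73 log2 units of 0, and the median over the 16 was -0.07, 0.13 and -0.20 in the 3 comparisons.

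The 3 phosphofructokinase genes encode the subunits of the main rate-controlling step. PFKL, the liver-type subunit, stood at 63.8, 53.2 and 51.1 TPM in control, 40.8, 45.2 and 48.2 TPM in shAPT1 and 53.2, 62.6 and 63.1 TPM in APT1wt. The shAPT1 libraries were the 3 lowest. PFKL fell by 0.35 ± 0.09 in shAPT1 (adjusted p = 0.0078) and was lower than in APT1wt by a log2 fold change of -0.50 ± 0.08 (adjusted p = 7.5e-04), or -0.27 relative to its neighbours (adjusted p = 0.013). PFKP, the platelet-type subunit and the most abundant of the 3, stood at 286, 336 and 321 TPM in control, 243, 266 and 281 TPM in shAPT1 and 283, 330 and 326 TPM in APT1wt. Its fall of -0.31 ± 0.10 in shAPT1 (adjusted p = 0.036) was lost without any 1 control library or without shAPT1 library 1 (adjusted p of 0.061 to 0.11), and without the last the change was -0.17. Against APT1wt it was -0.36 ± 0.10 (adjusted p = 0.017), lost without APT1wt library 2 or 3 (adjusted p of 0.065 to 0.074) and -0.22 without shAPT1 library 1 (adjusted p = 0.021). PFKM, the muscle-type subunit, changed by -0.19 ± 0.07 and -0.18 ± 0.07 against control, short of the threshold (adjusted p = 0.056 and 0.062).

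ENO1, the enolase that forms phosphoenolpyruvate, is a highly expressed member. It stood at 1387, 1383 and 1359 TPM in control, 1159, 1197 and 1286 TPM in shAPT1 and 1463, 1511 and 1435 TPM in APT1wt. The 3 groups did not overlap, with shAPT1 lowest and APT1wt highest. ENO1 fell by 0.25 ± 0.06 in shAPT1 (adjusted p = 0.0068), changed by 0.11 ± 0.06 in APT1wt (adjusted p = 0.21), and was lower in shAPT1 than in APT1wt by -0.36 ± 0.06 (adjusted p = 5.8e-04). ENO1 and PFKL were the enzymes whose fall in shAPT1 held without any single library and under every alternative but the test against 1.5-fold.

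ALDOA, the main aldolase, stood at 866, 846 and 836 TPM in control, 689, 744 and 872 TPM in shAPT1 and 935, 942 and 944 TPM in APT1wt. Library 3 of shAPT1 lay above the control libraries, so these groups overlapped, and the fall of -0.23 ± 0.08 (adjusted p = 0.036) was lost without any 1 of 7 libraries (adjusted p of 0.053 to 0.13). Against APT1wt the difference was larger, -0.40 ± 0.08 (adjusted p = 0.0015), and held without any single library. GPI, which converts glucose 6-phosphate to fructose 6-phosphate, fell by 0.20 ± 0.07 in shAPT1 (adjusted p = 0.039) with overlapping groups, 265 to 323 TPM against 308 to 347 TPM, and the call was lost without any 1 of 6 libraries (adjusted p of 0.057 to 0.16). Relative to their neighbours the changes of PFKP, ALDOA and GPI in shAPT1 were -0.16, -0.12 and -0.13, and none passed (adjusted p = 0.28, 0.17 and 0.13). Between shAPT1 and APT1wt GPI differed by -0.12 ± 0.07 (adjusted p = 0.22), or -0.18 relative to its neighbours, which passed (adjusted p = 0.035).

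TPI1, the triose phosphate isomerase, stood at 627, 597 and 614 TPM in control, 550, 586 and 604 TPM in shAPT1 and 640, 632 and 641 TPM in APT1wt. It was lower in shAPT1 than in APT1wt by -0.21 ± 0.05 (adjusted p = 0.012) and passed against control in neither line; with library totals alone the call was lost. HK2, the inducible hexokinase that commits glucose to the pathway, was the enzyme lower in APT1wt. It stood at 23.6, 27.8 and 25.6 TPM in control, 23.8, 25.4 and 26.4 TPM in shAPT1 and 20.1, 20.1 and 19.7 TPM in APT1wt, where all 3 libraries lay below the other 6. HK2 fell by 0.32 ± 0.07 in APT1wt (adjusted p = 0.0035); relative to its chromosomal neighbours, whose median change was -0.16, it changed by -0.16 (adjusted p = 0.097). It was higher in shAPT1 than in APT1wt by 0.25 ± 0.07 (adjusted p = 0.014), a call lost without APT1wt library 2 or 3 or shAPT1 library 2 (adjusted p of 0.055 to 0.074).

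LDHA, which turns pyruvate into lactate, stood at 1353, 1351 and 1355 TPM in control, 1471, 1323 and 1365 TPM in shAPT1 and 1486, 1564 and 1602 TPM in APT1wt. The APT1wt libraries were the 3 highest. LDHA rose by 0.22 ± 0.07 in APT1wt (adjusted p = 0.045), lost without any 1 of 6 libraries (adjusted p of 0.057 to 0.17), and was lower in shAPT1 than in APT1wt by -0.23 ± 0.07 (adjusted p = 0.033), lost without any 1 of 5 libraries (adjusted p of 0.057 to 0.11). PKM, the pyruvate kinase of the last step, stood at 1424, 1362 and 1338 TPM in control, 1283, 1447 and 1499 TPM in shAPT1 and 1698, 1594 and 1580 TPM in APT1wt. It rose by 0.25 ± 0.08 in APT1wt (adjusted p = 0.035), lost without any 1 of 5 libraries (adjusted p of 0.065 to 0.14), and was lower in shAPT1 than in APT1wt by -0.31 ± 0.08 (adjusted p = 0.01). Relative to their neighbours LDHA and PKM each changed by 0.15 in APT1wt (adjusted p = 0.17 and 0.2), and PKM differed by -0.19 between the lines (adjusted p = 0.085).

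Apart from ALDOC, the remaining enzymes passed in no comparison before correction for chromosomal neighbours. GAPDH, the most abundant member, stood at 2694, 2521 and 2472 TPM in control, 2274, 2685 and 2875 TPM in shAPT1 and 2915, 2836 and 2747 TPM in APT1wt, and its change in shAPT1 ranged from -0.09 to 0.07 over the alternatives. PGK1, the first ATP-yielding kinase, stood at 362, 378 and 349 TPM in control, 383, 382 and 374 TPM in shAPT1 and 338, 345 and 300 TPM in APT1wt. Neither gene gave a difference that passed (adjusted p of 0.78 and 0.99 in shAPT1, 0.21 and 0.18 in APT1wt). HK1, PGAM1 and ENO2, the housekeeping hexokinase, a phosphoglycerate mutase and the neuronal-type enolase, changed by 0.01 to 0.19 against control. Between shAPT1 and APT1wt PGAM1 differed by -0.15 ± 0.06 (adjusted p = 0.057), or -0.18 relative to its neighbours, which passed (adjusted p = 0.035). ALDOC, a brain-type aldolase at 1.2 to 2.15 TPM in control and 2.14 to 3.75 TPM in APT1wt, rose by 0.73 ± 0.25 in APT1wt (adjusted p = 0.046) from 15 to 52 reads a library, a call lost under 17 of 22 alternatives.

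Summed over the 16 enzymes, the level was 10015, 9822 and 9630.5 TPM in control, 9016, 9595 and 10212 TPM in shAPT1 and 10784, 10830 and 10580 TPM in APT1wt. The APT1wt libraries were the 3 highest and the shAPT1 libraries reached from below to above the control range. The mean in APT1wt was 1.093 ± 0.025 times that of control and in shAPT1 0.978 ± 0.064 times (SD propagated from 3 libraries a group). Without GAPDH and ENO1 the ratios were 1.093 and 0.983. In all 9 libraries these 16 genes made up 0.902% to 1.08% of transcripts.

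PKM makes either of 2 enzymes by including 1 of 2 mutually exclusive exons, the M1 exon of the constitutively active muscle form or the M2 exon of the regulated form typical of tumours. The exons are shown because their letters are what lets short reads tell the forms apart. Both are exon 9 of their transcript and 167 bases long, on the minus strand of chromosome 15 (GRCh38, GENCODE 29), the M1 exon at chr15:72203022-72203188 and the M2 exon at chr15:72202454-72202620, and the capitals mark the 62 positions at which they differ.
PKM M1 exon: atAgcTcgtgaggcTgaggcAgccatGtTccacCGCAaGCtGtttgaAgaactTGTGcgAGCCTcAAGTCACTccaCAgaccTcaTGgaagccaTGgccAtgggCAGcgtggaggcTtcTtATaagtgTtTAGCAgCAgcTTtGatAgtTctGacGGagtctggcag
PKM M2 exon: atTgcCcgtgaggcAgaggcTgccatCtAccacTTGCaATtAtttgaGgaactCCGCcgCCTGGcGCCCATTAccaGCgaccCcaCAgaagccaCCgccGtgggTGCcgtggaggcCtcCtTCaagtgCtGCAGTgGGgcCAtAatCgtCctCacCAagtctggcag

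Coding transcripts with the M2 exon summed to 1163, 1078 and 1034 TPM in control, 979, 1097 and 1142 TPM in shAPT1 and 1371, 1263 and 1191 TPM in APT1wt. Coding transcripts with the M1 exon summed to 20.3, 25.1 and 25.3 TPM in control, 19.9, 28.2 and 27.3 TPM in shAPT1 and 27, 29 and 26.6 TPM in APT1wt. The M1 form was thus 1.72% to 2.38% of these transcripts in control, 1.99% to 2.51% in shAPT1 and 1.93% to 2.25% in APT1wt, and the 3 ranges overlapped. The transcript whose M1 exon is printed was estimated at only 0 to 4.07 TPM a library, so most of the M1 sum came from other transcripts. The split between transcripts is an estimate by Salmon and was not tested.

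Of the 3 transporter genes 1 rose in shAPT1, where 12.8% of all genes were higher, and none passed in APT1wt, where 23.4% of all genes passed. SLC2A3, the high-affinity glucose transporter GLUT3, stood at 6.66, 5.98 and 7.09 TPM in control, 8.32, 9.04 and 10.1 TPM in shAPT1 and 6.37, 7.83 and 9.51 TPM in APT1wt. It rose by 0.50 ± 0.11 in shAPT1 (adjusted p = 0.0037), without overlap; with the transcript length offset the change was 0.41 (adjusted p = 0.09). SLC2A1, the main glucose transporter GLUT1, stood at 118, 124 and 120 TPM in control, 132, 141 and 163 TPM in shAPT1 and 114, 126 and 124 TPM in APT1wt. Its shAPT1 libraries were the 3 highest, but the change of 0.21 ± 0.08 did not pass (adjusted p = 0.07). This change passed under 4 of 22 alternatives, among them without shAPT1 library 1. SLC16A3, the lactate exporter MCT4, passed only in the direct comparison, at -0.30 ± 0.09 in shAPT1 against APT1wt (adjusted p = 0.021) with overlapping groups (118 to 159 TPM and 145 to 177 TPM), and the call was lost without APT1wt library 2 or shAPT1 library 1 or 2 (adjusted p of 0.051 to 0.12). On the opposite strand it overlaps CSNK1D, at 114 to 130 TPM.

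PFKFB4 had the largest rise of any member in APT1wt. With PFKFB3 it encodes the enzymes that set fructose 2,6-bisphosphate, the strongest activator of phosphofructokinase. PFKFB4 (chromosome 3, 48517684 to 48562015) stood at 11.5, 8.52 and 8.50 TPM in control, 10.1, 10.1 and 11.5 TPM in shAPT1 and 33.2, 23.4 and 26.7 TPM in APT1wt. The APT1wt libraries were far above the other 6, which overlapped. PFKFB4 rose by 1.42 ± 0.12 in APT1wt (adjusted p = 1.9e-06), changed by 0.24 ± 0.13 in shAPT1 (adjusted p = 0.21), and differed by -1.18 ± 0.12 between shAPT1 and APT1wt (adjusted p = 8.7e-06).

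The rise of PFKFB4 was spread over a coding and a non-coding transcript, with the larger increase in the latter. The coding transcript was estimated at 3.55, 3.40 and 2.90 TPM in control, 3.66, 4.13 and 4.31 TPM in shAPT1 and 8.20, 6.81 and 8.28 TPM in APT1wt. A processed transcript, which begins upstream of the coding one and holds 43% of the gene's TPM, was estimated at 4.07, 3.46 and 4.26 TPM in control, 3.88, 3.61 and 3.71 TPM in shAPT1 and 17.3, 10.4 and 11.1 TPM in APT1wt. Its start overlaps the end of the next gene on the same strand, UCN2, by 289 bases. UCN2, which encodes the peptide hormone urocortin 2, stood at 15.3, 11.8 and 12.8 TPM in control, 13.5, 11.6 and 12.7 TPM in shAPT1 and 39.3, 41.9 and 35.7 TPM in APT1wt, a change of 1.55 ± 0.11 (adjusted p = 3.2e-07). These 2 transcripts of PFKFB4 and UCN2 were highest in the 3 APT1wt libraries; whether reads from UCN2 were assigned to the processed transcript was not tested.

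**Figure D3:**
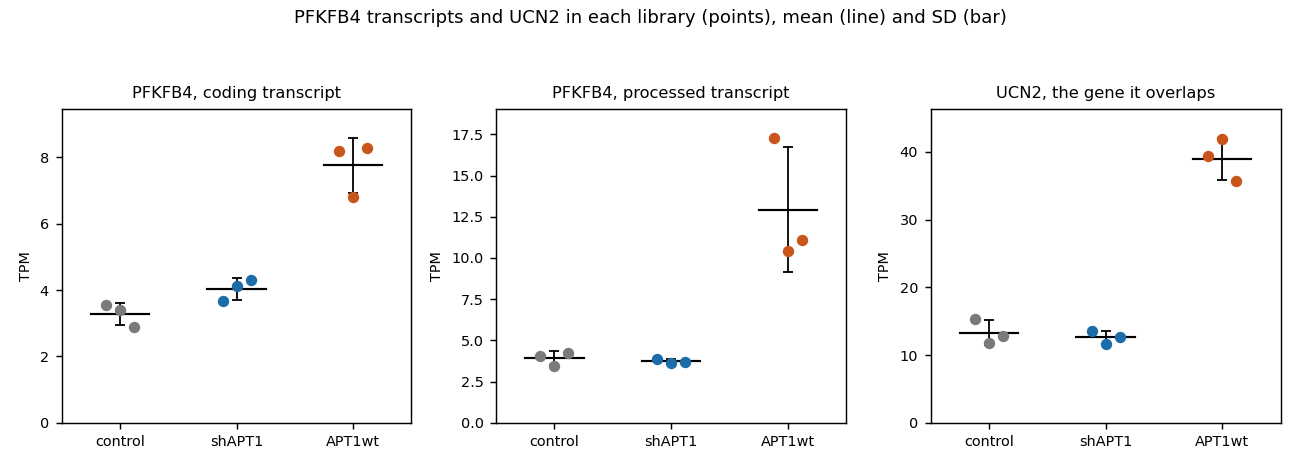
TPM of the PFKFB4 coding transcript (left), the PFKFB4 processed transcript (middle) and the overlapping gene UCN2 (right) in each library, with the mean (line) and SD (bar) of 3 libraries; each panel has its own axis from 0. In all 3 panels the APT1wt points lie above every control and shAPT1 point.

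PFKFB3 stood at 44.3, 46.2 and 43.1 TPM in control, 38.1, 37.9 and 41.6 TPM in shAPT1 and 36.0, 38.1 and 37.2 TPM in APT1wt. The control libraries were the 3 highest. PFKFB3 fell by 0.23 ± 0.06 in APT1wt (adjusted p = 0.012) and changed by -0.16 ± 0.06 in shAPT1 (adjusted p = 0.071). The tested genes around it on chromosome 10 had medians of -0.23 and -0.15 in the same comparisons, and relative to them the change was -0.00 in both (adjusted p = 0.98 and 0.97). The call in APT1wt was also lost without APT1wt library 1 or control library 2 (adjusted p of 0.051 to 0.064). PDK1 and PDK3, kinases that keep pyruvate out of the mitochondrial oxidation pathway, stood at 8.42 to 16.8 TPM and 2.47 to 5.11 TPM and passed in no comparison.

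The secreted factors VEGFA, ADM and ANGPTL4 were all lower in shAPT1 than in APT1wt by the test, where 12.4% of all tested genes were lower. VEGFA, the main angiogenic growth factor, stood at 107, 117 and 104 TPM in control, 75.5, 81.7 and 86.0 TPM in shAPT1 and 113, 114 and 108 TPM in APT1wt. The 3 shAPT1 libraries were below the other 6, which overlapped. VEGFA fell by 0.57 ± 0.07 in shAPT1 (adjusted p = 5.6e-05), changed by 0.06 ± 0.07 in APT1wt (adjusted p = 0.58), and differed by -0.63 ± 0.07 between shAPT1 and APT1wt (adjusted p = 2.5e-05). Its most abundant transcript, with 37.8% of the gene's TPM, was estimated at 37.9 to 46.7 TPM in control, 25.6 to 30.1 TPM in shAPT1 and 43 to 45.8 TPM in APT1wt. The neighbours of VEGFA on chromosome 6 had a median change of 0.04 in shAPT1.

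ADM encodes adrenomedullin, a vasodilator peptide. It stood at 64.9, 58.8 and 61.5 TPM in control, 86.0, 70.2 and 78.1 TPM in shAPT1 and 103, 109 and 107 TPM in APT1wt. The 3 groups did not overlap, with control lowest and APT1wt highest. ADM rose by 0.34 ± 0.07 in shAPT1 (adjusted p = 0.0024) and by 0.84 ± 0.07 in APT1wt (adjusted p = 9.2e-07), and the lines differed by -0.51 ± 0.07 (adjusted p = 8.6e-05).

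ANGPTL4, an inhibitor of lipoprotein lipase, had the largest change of any member. It stood at 5.66, 6.26 and 4.84 TPM in control, 2.95, 1.43 and 1.89 TPM in shAPT1 and 7.23, 3.17 and 2.89 TPM in APT1wt, from 22 to 137 reads a library. The shAPT1 libraries were below control, and library 1 of APT1wt lay far above the other 2 of its group. The shAPT1 and APT1wt libraries overlapped. ANGPTL4 fell by 1.81 ± 0.32 in shAPT1 (adjusted p = 0.001) and changed by -0.41 ± 0.28 in APT1wt (adjusted p = 0.33). The difference between the lines, -1.40 ± 0.33 (adjusted p = 0.0066), was -0.86 without APT1wt library 1 (adjusted p = 0.032).

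**Figure D4:**
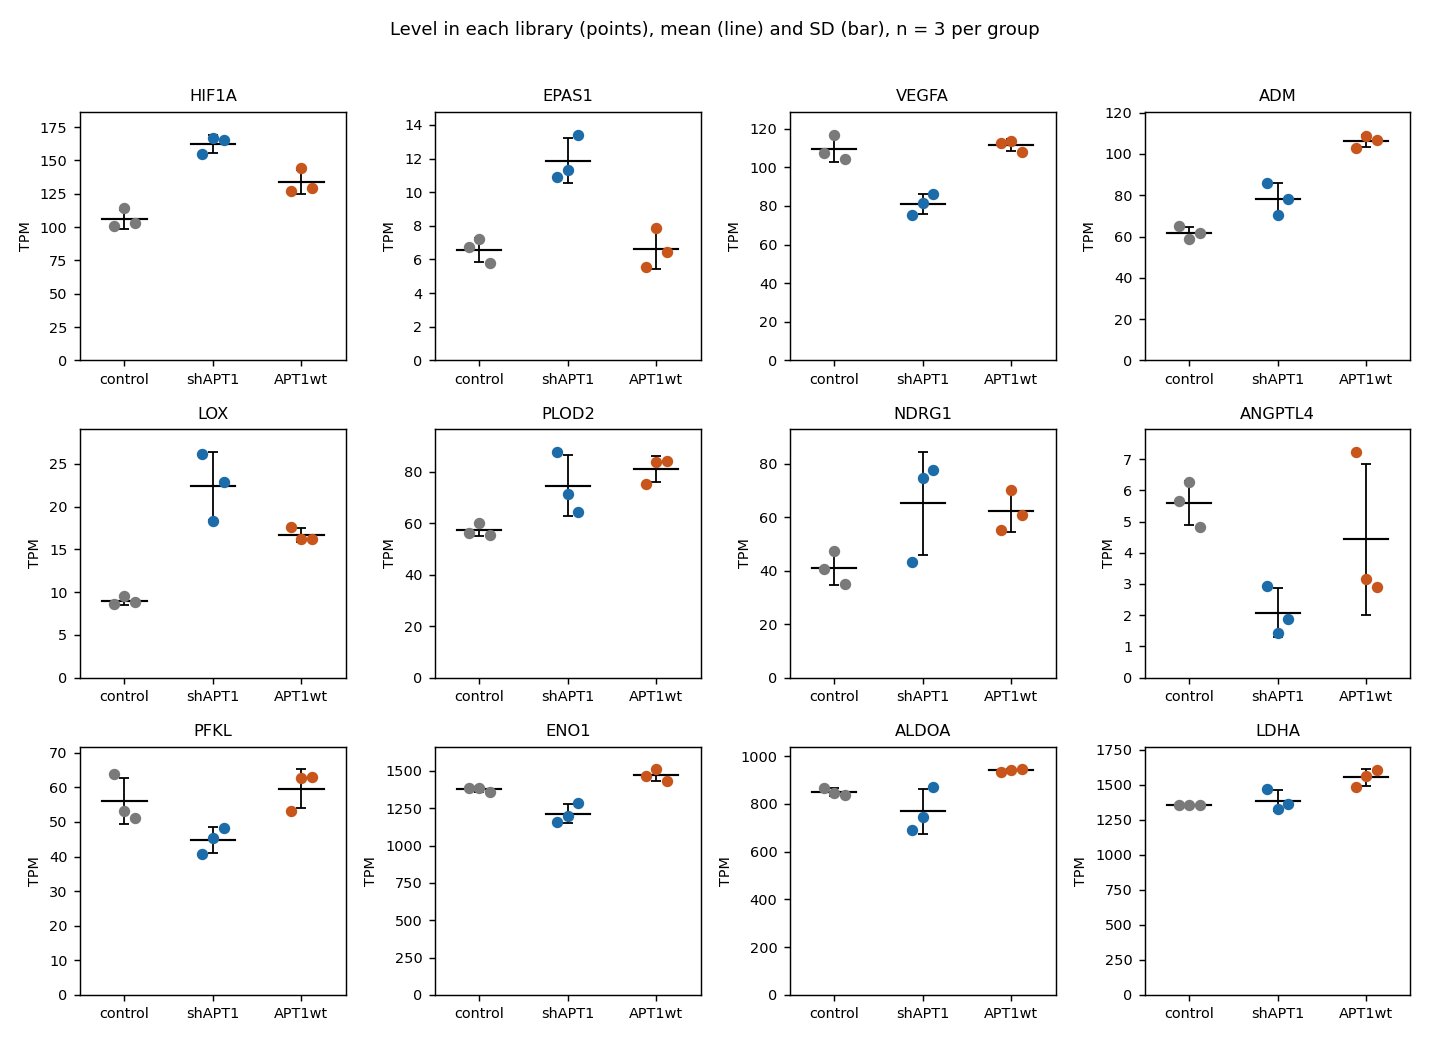
TPM of 12 members in each library (points), with the mean (line) and SD (bar) of 3 libraries for control (grey), shAPT1 (blue) and APT1wt (orange); each panel has its own axis from 0. HIF1A, ADM, LOX and ENO1 form 3 groups that do not overlap, EPAS1 and VEGFA set shAPT1 apart from the other 2 groups, and the enzymes in the bottom row differ by small shares of their level.

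Of the 5 collagen and secretory-pathway enzymes 3 rose in shAPT1 and 3 in APT1wt, where 12.8% and 11.8% of all genes were higher, and none fell or passed between the lines. LOX, the lysyl oxidase that cross-links collagen and elastin, stood at 8.58, 9.56 and 8.85 TPM in control, 26.1, 18.3 and 22.9 TPM in shAPT1 and 17.6, 16.2 and 16.2 TPM in APT1wt. All 6 libraries outside control were higher than the 3 control libraries. LOX rose by 1.17 ± 0.11 in shAPT1 (adjusted p = 5.9e-06) and by 0.92 ± 0.12 in APT1wt (adjusted p = 5.3e-05), and the lines differed by 0.25 ± 0.11, which did not pass (adjusted p = 0.11). Its main coding transcript was estimated at 4.19 to 4.93 TPM in control, 8.55 to 13.6 TPM in shAPT1 and 8.08 to 9.46 TPM in APT1wt. SRFBP1, which overlaps LOX on the opposite strand, changed by 0.13 ± 0.12 and -0.08 ± 0.12 (adjusted p = 0.49 and 0.67).

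PLOD2, a lysyl hydroxylase of collagen telopeptides, stood at 56.3, 60.2 and 55.6 TPM in control, 87.7, 71.5 and 64.5 TPM in shAPT1 and 75.4, 83.7 and 84.1 TPM in APT1wt. All control libraries were lowest. PLOD2 rose by 0.33 ± 0.08 in shAPT1 (adjusted p = 0.0096), short of the threshold with the transcript length offset (adjusted p = 0.053), and by 0.57 ± 0.08 in APT1wt (adjusted p = 2.2e-04). Between shAPT1 and APT1wt it differed by -0.23 ± 0.08 (adjusted p = 0.053), or -0.25 relative to its neighbours, which passed (adjusted p = 0.013). ERO1A, the oxidase that drives disulfide formation in the endoplasmic reticulum, stood at 65.6, 78.5 and 74.3 TPM in control, 121, 97 and 79.2 TPM in shAPT1 and 84.2, 104 and 90.5 TPM in APT1wt. It rose by 0.28 ± 0.08 in shAPT1 (adjusted p = 0.027), lost without any 1 of 5 libraries (adjusted p of 0.062 to 0.093), and by 0.33 ± 0.08 in APT1wt (adjusted p = 0.011), lost without APT1wt library 2 (adjusted p = 0.056). Its neighbours on chromosome 14 had medians of 0.22 and 0.15, and relative to them its changes were 0.06 (adjusted p = 0.55) and 0.19 (adjusted p = 0.059). Its main coding transcript stood at 45.8 to 52.2 TPM in control, 55.1 to 72.7 TPM in shAPT1 and 57.8 to 66.8 TPM in APT1wt. A transcript with a retained intron was estimated at 2.75, 7.86 and 2.92 TPM in control and 29.6, 20.7 and 1.12 TPM in shAPT1. In APT1wt that transcript stood at 5.44, 17.4 and 12.4 TPM. P4HA1 and P4HA2, the prolyl hydroxylases of collagen, changed by 0.05 to 0.18 and passed in no comparison.

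Promoter letters are shown for LOX and PLOD2, the collagen enzymes that rose in each line, and for EPAS1 and ANGPTL4, which differed in shAPT1. Each run comes from the 250 bases before the RefSeq start nearest the main coding transcript, 5′ to 3′ on the strand of the gene (RefSeq, GRCh38.p14), and stops short of any annotated exon. Capitals mark ACGTG or GCGTG, the core letters bound by HIF, on either strand (CACGT or CACGC when read on the other strand). LOX lies at chr5:122078361-122078509 on the minus strand, PLOD2 at chr3:146161185-146161434 on the minus strand, EPAS1 at chr2:46297157-46297401 on the plus strand and ANGPTL4 at chr19:8363905-8364150 on the plus strand.
LOX promoter: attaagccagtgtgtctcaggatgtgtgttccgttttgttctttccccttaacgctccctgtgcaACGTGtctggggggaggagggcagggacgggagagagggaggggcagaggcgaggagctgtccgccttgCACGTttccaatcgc
PLOD2 promoter: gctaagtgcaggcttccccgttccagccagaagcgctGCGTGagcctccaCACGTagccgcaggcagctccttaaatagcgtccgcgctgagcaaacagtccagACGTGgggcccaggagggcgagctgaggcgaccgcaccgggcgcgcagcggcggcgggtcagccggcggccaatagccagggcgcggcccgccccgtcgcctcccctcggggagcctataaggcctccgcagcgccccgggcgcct
EPAS1 promoter: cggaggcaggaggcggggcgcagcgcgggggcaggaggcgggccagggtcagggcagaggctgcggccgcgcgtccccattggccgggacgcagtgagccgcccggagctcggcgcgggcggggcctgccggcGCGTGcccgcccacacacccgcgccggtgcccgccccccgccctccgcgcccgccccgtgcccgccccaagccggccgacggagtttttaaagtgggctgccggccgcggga
ANGPTL4 promoter: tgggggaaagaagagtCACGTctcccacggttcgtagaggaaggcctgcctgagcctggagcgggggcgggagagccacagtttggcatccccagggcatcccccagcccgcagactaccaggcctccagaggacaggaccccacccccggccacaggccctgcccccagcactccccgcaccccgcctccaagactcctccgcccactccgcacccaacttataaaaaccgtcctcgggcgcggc

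In the whole 250 bases LOX held 4 matches, all ACGTG, beginning 185, 116, 98 and 42 bases before the start, the first 2 of them in the printed 149 bases. PLOD2 held 3, beginning 213, 200 and 146 bases before it, EPAS1 held 1 at 117 and ANGPTL4 1 at 234. Of the 44 members 39 had a window in the RefSeq table, 71 windows in all, and 46 of these (64.8%) held a match, beside 43.2% of all 35116 windows of the same length. The members' windows were also richer in CpG, with a median of 22 CpG against 11; among all windows with a CpG count within the interquartile range of the members 59.7% held a match. ACGTG alone was in 42.3% of the members' windows, 18.5% of all windows and 23.8% of those with like CpG counts. A match describes the letters and not a bound site. Counted by gene, 34 of the 39 members (87.2%) had a match in at least 1 window. A member has up to 7 windows, and more windows give more chances of a match. The share by gene was not computed over all genes, so 87.2% cannot be set against the shares of windows. The 4 members shown were chosen for their changes, so their directions cannot be set against their matches.

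NDRG1, a stress-induced differentiation gene and a common hypoxia marker, stood at 40.6, 47.4 and 34.8 TPM in control, 43.1, 74.7 and 77.7 TPM in shAPT1 and 55.3, 70.3 and 60.8 TPM in APT1wt. The APT1wt libraries were all above control, while library 1 of shAPT1 lay within the control range. NDRG1 rose by 0.59 ± 0.14 in shAPT1 (adjusted p = 0.0056), or 0.78 without library 1, and by 0.66 ± 0.14 in APT1wt (adjusted p = 0.0028). The median change of its neighbours on chromosome 8 was 0.15 and 0.17. With the scaled values the authors deposited, tested on log2(value + 1), the change in shAPT1 was 0.57 and did not pass (adjusted p = 0.065).

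HILPDA, a lipid droplet protein, fell in both lines, against the direction of NDRG1. It stood at 12.9, 11 and 11.6 TPM in control, 7.93, 8.55 and 9.05 TPM in shAPT1 and 8.63, 8.69 and 8.87 TPM in APT1wt. All control libraries were highest. HILPDA fell by 0.44 ± 0.13 in shAPT1 (adjusted p = 0.023) and by 0.46 ± 0.13 in APT1wt (adjusted p = 0.018). The first call was lost without control library 1 or shAPT1 library 3 (adjusted p of 0.053 to 0.092) and the second without control library 1 or APT1wt library 1 or 2 (adjusted p of 0.057 to 0.075). Relative to its neighbours on chromosome 7 neither passed (-0.33, adjusted p = 0.092, and -0.24, adjusted p = 0.24). The main coding transcript of HILPDA holds 67.8% of its TPM. Its estimates overlapped between control and shAPT1 (6.88 to 8.39 and 6.09 to 7.32 TPM), and were 4.9 to 5.77 TPM in APT1wt. On the same strand the gene RP11-212P7.3, at 1.03 to 17.3 TPM, overlaps the span of HILPDA by 2570 bases. Whether the 2 genes share reads was not tested.

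The last HIF targets passed in no comparison before correction for chromosomal neighbours. CA9, the carbonic anhydrase widely used as a marker of hypoxia, was near its detection limit. It had 1, 7.76 and 7 estimated reads in control, 3, 1 and 2 in shAPT1 and 0, 3 and 4 in APT1wt, or at most 0.779 TPM, and was the member removed by the filter. The count of 0 in 1 library allows up to 3 reads, for counting error only. CA12, another carbonic anhydrase of the cell surface, stood at 3.16 to 5.11 TPM and changed by -0.19 ± 0.13 and -0.35 ± 0.13. Relative to its neighbours the change of CA12 in APT1wt was -0.42, which passed (adjusted p = 0.042). BNIP3 and BNIP3L, receptors that direct mitochondria to autophagy, lay at 80.4 to 99.5 TPM and 39.8 to 52.2 TPM with changes between -0.10 and 0.12. BNIP3 has 39 pseudogenes in the files, which took 7.87% to 16.5% of the TPM of gene and pseudogenes together, a larger share than for any other member, so its level is less certain.

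Other genes of the HIF pathway were read from lists of non-members. Of 12 tested genes of the HIF machinery 4 rose and 1 fell in shAPT1, and 4 rose and none fell in APT1wt, beside 12.8% of all tested genes higher and 11.6% lower in shAPT1 and 11.8% and 11.6% in APT1wt. CITED2, which competes with HIF for the coactivator p300, rose from 76.1, 63.7 and 53.5 TPM in control to 113, 121 and 128 TPM in shAPT1, by 0.89 ± 0.09 (adjusted p = 6.0e-06), and to 81.5, 89.3 and 78.7 TPM in APT1wt, by 0.37 ± 0.09 (adjusted p = 0.007); relative to its neighbours the second change was 0.12 (adjusted p = 0.52). ARNT, the constant partner of the alpha subunits, rose by 0.23 ± 0.07 and 0.26 ± 0.07 (adjusted p = 0.029 and 0.019), and its relative ARNT2 by 0.39 ± 0.07 and 0.28 ± 0.07 (adjusted p = 0.0016 and 0.013) with overlapping TPM. EGLN2, a prolyl hydroxylase, fell by 0.26 ± 0.07 in shAPT1 (adjusted p = 0.013), with overlapping TPM, and changed by -0.11 relative to its neighbours (adjusted p = 0.21).

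Of 30 further HIF target genes 6 rose and 3 fell in shAPT1, or 20% and 10% beside 12.8% and 11.6% of all genes, and 7 rose and 8 fell in APT1wt, or 23.3% and 26.7% beside 11.8% and 11.6%. CXCR4, a chemokine receptor, had the largest change. It stood at 1.03, 0.847 and 0.963 TPM in control, 14.3, 18.7 and 18.2 TPM in shAPT1 and 0.809, 2.00 and 1.61 TPM in APT1wt, and rose by 4.13 ± 0.24 in shAPT1 (adjusted p = 3.4e-08). STC1, the glycoprotein hormone stanniocalcin 1, fell by 1.55 ± 0.09 in shAPT1 (adjusted p = 4.7e-08) and by 1.32 ± 0.09 in APT1wt (adjusted p = 2.7e-07), from 46.6 to 54.2 TPM in control to 15.7 to 21.6 TPM in the other 6 libraries. BHLHE40, a circadian repressor, rose by 0.90 ± 0.16 in each line (adjusted p = 8.6e-04 and 9.3e-04). PGF, the placental growth factor related to VEGFA, rose by 1.81 ± 0.23 in APT1wt (adjusted p = 5.6e-05), where VEGFA itself did not pass. IGFBP3, which binds insulin-like growth factors, was higher in shAPT1 than in APT1wt by 1.21 ± 0.10 (adjusted p = 9.0e-07).

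Of 31 tested isozymes, transporters and branch enzymes of glycolysis outside the members, 3 rose and 10 fell in shAPT1, or 9.68% and 32.3% beside 12.8% and 11.6% of all genes. In APT1wt 1 rose and 3 fell, or 3.23% and 9.68% beside 11.8% and 11.6%. TALDO1, the transaldolase of the pentose phosphate pathway, stood at 316, 308 and 305 TPM in control, 88.8, 119 and 125 TPM in shAPT1 and 291, 283 and 312 TPM in APT1wt, and fell by 1.68 ± 0.10 (adjusted p = 3.9e-08). PGD, the phosphogluconate dehydrogenase of that pathway, fell by 0.48 ± 0.07 (adjusted p = 1.8e-04), from 125 to 135 TPM in control to 90.9 to 106 TPM. TKT, its transketolase, fell by 0.26 ± 0.08 in shAPT1 (adjusted p = 0.035) and was lower there than in APT1wt by -0.35 ± 0.08 (adjusted p = 0.0075) with overlapping TPM. PDHA1, the pyruvate dehydrogenase subunit that the PDK kinases inhibit, fell by 0.48 ± 0.06 in APT1wt (adjusted p = 6.2e-05), where its neighbours had a median of -0.41.

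Markers of other cell types were read beside these results. The leukocyte genes PTPRC, CD3E and LYZ did not exceed 0.265 TPM, although HLA-DRA, CD74 and CD68 were present, and the 8 genes of that list summed to 622 to 736 TPM in control, 331 to 345 TPM in shAPT1 and 323 to 374 TPM in APT1wt. Of the 4 leukocyte genes tested, 3 fell in shAPT1 and 3 in APT1wt, beside 11.6% of all genes in each, and none rose. Of 7 fibroblast genes, cells that also express LOX and PLOD2, DCN, LUM and PDGFRA stayed at or below 0.424 TPM. Of the 4 tested, 3 rose and 1 fell in shAPT1, beside 12.8% and 11.6% of all genes. In APT1wt 2 rose, beside 11.8% of all genes. The fibroblast list summed to 17.9 to 20.7 TPM in control, 13.3 to 22.7 TPM in shAPT1 and 20.1 to 24.7 TPM in APT1wt. Of 6 endothelial genes, whose cells also express EPAS1 and ADM, CDH5 and VWF stayed at or below 0.0998 TPM, and the list summed to 41.3 to 50.7 TPM in control, 59.3 to 77.4 TPM in shAPT1 and 102 to 106 TPM in APT1wt, most of it ESAM. Of the 4 endothelial genes tested, 2 rose in shAPT1, beside 12.8% of all genes. In APT1wt 1 rose and 1 fell, beside 11.8% and 11.6%. The part of these genes in the changes of the members was not tested.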

How the data were processed

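The authors deposited 1 Salmon file per library, which holds estimated counts and TPM per transcript per the file headers, and a gene table of a signal they scaled between libraries by a method not given in the sources used here. FastQC, Salmon, DESeq2 and build GRCh38.p10 are named in the submitters' processing notes without versions. Estimated counts were summed per gene and rounded, and TPM was summed per gene for levels. All 9 libraries entered 1 edgeR fit (4.0.16, R 4.3.3; filterByExpr, TMM, quasi-likelihood test, no block) with 3 contrasts, tested on simulated data. Depth was 12381931 to 18667383 estimated reads. Members called in any contrast without overlap of those groups, and 10 fixed ones, are given by library, and from each other list up to 4 genes a comparison with the largest called changes; some genes of these lists are not reported here. The members and all gene lists were chosen with earlier results of these data known. Alternatives included DESeq2 1.42.0 and limma 3.58.1; a correction for the 50 tested genes on each side and one for gene length and GC were chosen after seeing the data. Positions and exons came from GENCODE 29, and promoters from RefSeq. Figures used Python 3.11.15 and matplotlib 3.10.9.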

Additional observations from a re-analysis of the deposited data

How the results depend on the processing

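Over 22 alternatives no called change of a member reversed direction. Of 48 called changes of single members 7 passed under every alternative and 14 others were lost only in the test against a minimum change of 1.5-fold. The 15 uncalled results that were recomputed gave 330 values, of which 28 changed sign without a call. Some of these results gained a call. SLC2A1 passed under 4 alternatives in shAPT1 against control and under 3 in shAPT1 against APT1wt. PFKFB3 passed under 2 and 1 in the same comparisons. GAPDH passed under 1 in APT1wt against control and, like PGK1, under 1 in shAPT1 against APT1wt. With the test against 1.5-fold 2 members were higher and 1 lower in shAPT1, 2 higher and 0 lower in APT1wt, and 1 higher and 1 lower in shAPT1 against APT1wt, beside 384, 364 and 357 calls over all genes. With the deposited scaled values 5 members were higher in shAPT1, beside 1197 of all genes. With library totals alone 5 were lower in shAPT1, 5 lower in APT1wt, and 8 higher in shAPT1 against APT1wt, where the median of the members was -0.02. Over all genes these counts were 1485, 2057 and 2628. With only the 2 groups compared 5 members were lower in shAPT1 and 5 in APT1wt, beside 1473 and 2324 of all genes. Correcting for chromosomal neighbours left 4 members lower in shAPT1, 6 higher and 1 lower in APT1wt, and a median of -0.16 in shAPT1 against APT1wt. Over all genes it left 1504 lower in shAPT1, and 1238 higher and 1096 lower in APT1wt. Correcting for gene length and GC gave 18 members higher and 5 lower in APT1wt, beside 2415 and 2357 of all genes. The cause of these differences was not tested.

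Leaving out each library in turn gave 7 to 10 higher and 4 to 9 lower in shAPT1 (median -0.02 to 0.03), 7 to 14 higher and 2 to 5 lower in APT1wt (median 0.1 to 0.16), and 1 to 5 higher and 9 to 14 lower in shAPT1 against APT1wt (median -0.15 to -0.05). The counts that moved by over 1.5 times were 4, 5 and 5 lower in shAPT1 without control library 1, control library 2 or shAPT1 library 1, 7 higher in APT1wt without its library 2, 5 lower in APT1wt without shAPT1 library 1, and 5 or 1 higher in shAPT1 against APT1wt without shAPT1 library 1 or 2. Over all genes the matching counts were 1365, 1280 and 1861 lower, 1245 higher, 2391 lower, and 2057 or 1426 higher. Total calls differed by over 1.5 times with the transcript length offset (2307, 2230 and 2374 against 3719, 3568 and 3829), with the deposited scaled values (2326, 2236 and 2357), and in APT1wt with the neighbour correction (2334), and in APT1wt without its library 3 (2298).

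The labels number the libraries alike in each group and do not say what the number marks. Same-numbered libraries of different groups had correlations of deviations between -0.051 and 0.1, and differently numbered ones between -0.11 and 0.071. The highest, 0.103 and 0.0934, were those of APT1wt library 1 with library 1 of control and of shAPT1. These values do not settle whether the number pairs the libraries. With the replicate number as a block 9 members were higher and 7 lower in shAPT1, 11 higher and 4 lower in APT1wt, and 3 higher and 13 lower in shAPT1 against APT1wt. All genes gave 1939 and 1815, 1820 and 1805, and 1943 and 1929. For the summed enzyme level, the share of reads gave ratios to control of 0.952 in shAPT1 and 1.079 in APT1wt. Depth limits CA9, ANKRD37, ALDOC, ANGPTL4 and EGLN3 most, and arms of 2 libraries were assumed to vary like the other groups.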
